A study of Homo sapiens with 9 samples.

Results

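The p63 and Notch regulators of keratinocyte fate were examined as 8 genes of the deposited count table, chosen by gene symbol: the transcription factor TP63, the receptors NOTCH1, NOTCH2 and NOTCH3, the ligands JAG1 and JAG2, the Notch target HES1 and the differentiation factor KLF4. They were 8 of the 61311 genes listed, and all 8 passed the filter on low counts that left 15154 genes for testing. The study sequenced the RNA of HaCaT cells, an immortalized human keratinocyte line of wild-type genotype label, grown in DMEM with 10% FBS, in 3 groups of 3 libraries. Control cells were not irradiated but had their medium replaced at the same times, and the UVA group received 5 J/cm2 of UVA. The CT group received the same UVA dose and afterwards an extract of Coreopsis tinctoria (CT). The dose of CT is not in the sample labels but is stated in the paper. The study asked whether CT limits photodamage in these cells. HaCaT is a single cell line, and no library of CT without UVA was analysed here, so CT was compared only within irradiated cells and with unirradiated ones. Whether the 3 libraries of a group stem from independent cultures is not stated, and the tests can speak only of the spread among the libraries, which may be technical.

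In the epidermis, p63 is the transcription factor that maintains basal, proliferating keratinocytes and their keratins and adhesion proteins. Notch receptors are cut on binding a Jagged or Delta ligand of a neighbouring cell, and the freed intracellular part enters the nucleus, joins the DNA-binding protein RBPJ and a Mastermind coactivator, and switches on targets such as HES1. In keratinocytes Notch signalling drives cells out of the basal layer, and p63 and Notch restrain each other. KLF4 is a zinc finger factor of the upper layers that is needed for the skin barrier in mice.

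Where these genes start bears on what gene counts can show. TP63 lies on chromosome 3 (GRCh38, 189631416 to 189897279, plus strand), and its coding transcripts begin at 6 positions spread over 158 kb, so that a count per gene sums the TA and ΔN forms of p63. All 8 genes matched a RefSeq promoter (build GRCh38.p14, 250 bases before to 50 bases after the annotated start). For TP63 this window lies at the upstream end of the gene, and its starts farther downstream were not searched for motifs. The RBPJ core motif, TGGGAA searched on both strands, was present in the HES1 promoter and in none of the other 7, against 24.0% of all 35116 promoters of this length. HES1 held 2 copies on the gene's own strand, with first bases at -84 and -70 from the start. The HES N-box CACNAG was present in 4 of the 8 (NOTCH1, NOTCH2, NOTCH3 and HES1) against 38.0% of all promoters, the AP-1 motif TGANTCA in 0 of the 8 against 7.71%, and the GC box GGGCGG in 6 of the 8 (all but TP63 and HES1) against 45.0%. NOTCH1 and KLF4, the receptor and the factor whose RNA moved in opposite directions after UVA, each held 4 GC boxes, of which 2 of NOTCH1 overlap. Their windows are printed beside that of HES1, with the RBPJ core in capitals in HES1 and the GC boxes, in either orientation, in capitals in the others. A motif match is a description of the letters and not of binding.
HES1, chr3:194135898-194136197, plus strand: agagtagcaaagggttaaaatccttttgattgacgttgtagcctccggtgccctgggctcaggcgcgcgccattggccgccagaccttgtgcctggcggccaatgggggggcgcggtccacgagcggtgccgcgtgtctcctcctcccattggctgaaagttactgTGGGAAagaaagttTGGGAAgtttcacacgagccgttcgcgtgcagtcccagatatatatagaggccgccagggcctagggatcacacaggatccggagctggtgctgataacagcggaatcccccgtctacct
NOTCH1, chr9:136545999-136546298, minus strand: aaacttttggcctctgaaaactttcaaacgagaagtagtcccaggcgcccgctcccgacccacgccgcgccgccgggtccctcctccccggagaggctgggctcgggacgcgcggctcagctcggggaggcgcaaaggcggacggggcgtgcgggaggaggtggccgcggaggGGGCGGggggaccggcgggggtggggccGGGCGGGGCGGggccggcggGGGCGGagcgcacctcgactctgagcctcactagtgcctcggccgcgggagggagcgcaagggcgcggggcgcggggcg
KLF4, chr9:107489720-107490019, minus strand: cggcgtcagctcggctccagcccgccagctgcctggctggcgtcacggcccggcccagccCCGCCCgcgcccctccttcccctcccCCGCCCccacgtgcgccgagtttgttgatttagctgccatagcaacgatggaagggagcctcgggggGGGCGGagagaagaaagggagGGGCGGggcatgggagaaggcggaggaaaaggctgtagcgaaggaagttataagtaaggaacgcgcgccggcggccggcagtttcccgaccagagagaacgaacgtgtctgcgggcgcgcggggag

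Library totals ran from 16390289 to 21971215 counts. Levels are given as CPM, counts per 1000000 counts of a library, after TMM scaling, as mean ± SD of 3 libraries, and differences as log2 fold changes with their SE from edgeR's quasi-likelihood test, with p-values adjusted by Benjamini-Hochberg over the 15154 genes. All 12 keratinocyte markers were detected in all libraries. Their summed level was 5922 to 6912 CPM in control, 4688 to 5107 CPM in UVA and 4823 to 4945 CPM in CT. Of the 12, 10 (TP63 among them) were called lower in UVA than in control, beside 10.6% of all tested genes. The calls of TP63, PERP, KRT17, KRT6A and DSG3 were lost without UVA replicate 2. Those of KRT5, KRT14, SFN, DSP and PKP1 held with any 1 library left out. In CT against control 7 of the 12 were called lower, beside 14.2% of all tested genes. Summed fibroblast markers were 24.8 to 28.2 CPM in control, 14.1 to 18.1 CPM in UVA and 13.6 to 15.9 CPM in CT, with PDGFRA at 0 in all libraries. FBLN1 alone made up 24.5 ± 1.60, 14.8 ± 1.94 and 13.9 ± 1.20 CPM of these sums, and 3 of the 7 genes could be tested. Summed immune markers were 9.35 to 10.6 CPM in control, 13.7 to 18.2 CPM in UVA and 14.1 to 15.9 CPM in CT, with CD207 at 0, and were nearly all CD68 (9.34 ± 0.979, 16.1 ± 2.38 and 14.7 ± 0.687 CPM), the only 1 of the 6 genes that could be tested. Melanocyte markers summed to 5.46 to 5.93 CPM in control, 4.99 to 5.67 CPM in UVA and 4.63 to 6.43 CPM in CT, with TYR at 0. Endothelial markers summed to 6.99 to 9.80 CPM in control, 8.44 to 9.30 CPM in UVA and 5.78 to 6.87 CPM in CT, with KDR at 0. CDH5 was called higher in UVA than in control (log2 fold change 0.76, adjusted p = 0.00568) and VWF lower in CT than in control (-1.45, adjusted p = 0.000270). Keratinocyte markers, FBLN1 and CD68 move with irradiation as the regulators do, and their part in the results was not tested. In bulk RNA, fewer cells of a type and less RNA per cell cannot be told apart.

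UVA irradiation was accompanied by lower RNA of TP63, NOTCH1, NOTCH3, JAG2 and HES1 and by higher RNA of NOTCH2 and KLF4. Of the 8 genes, 5 were called lower, where 10.6% of all tested genes were, and 2 were called higher, where 10.5% were. The 8 were chosen with earlier results of these data known, so these counts are no test of the set. JAG1 was not called. The median log2 fold change of the 8 was -0.24, beside 0.00 over all tested genes. In each of the 8 genes the 3 UVA libraries lay wholly on one side of the 3 control libraries. The share of all tested genes that separate in this way was not counted.

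**Figure D1:**
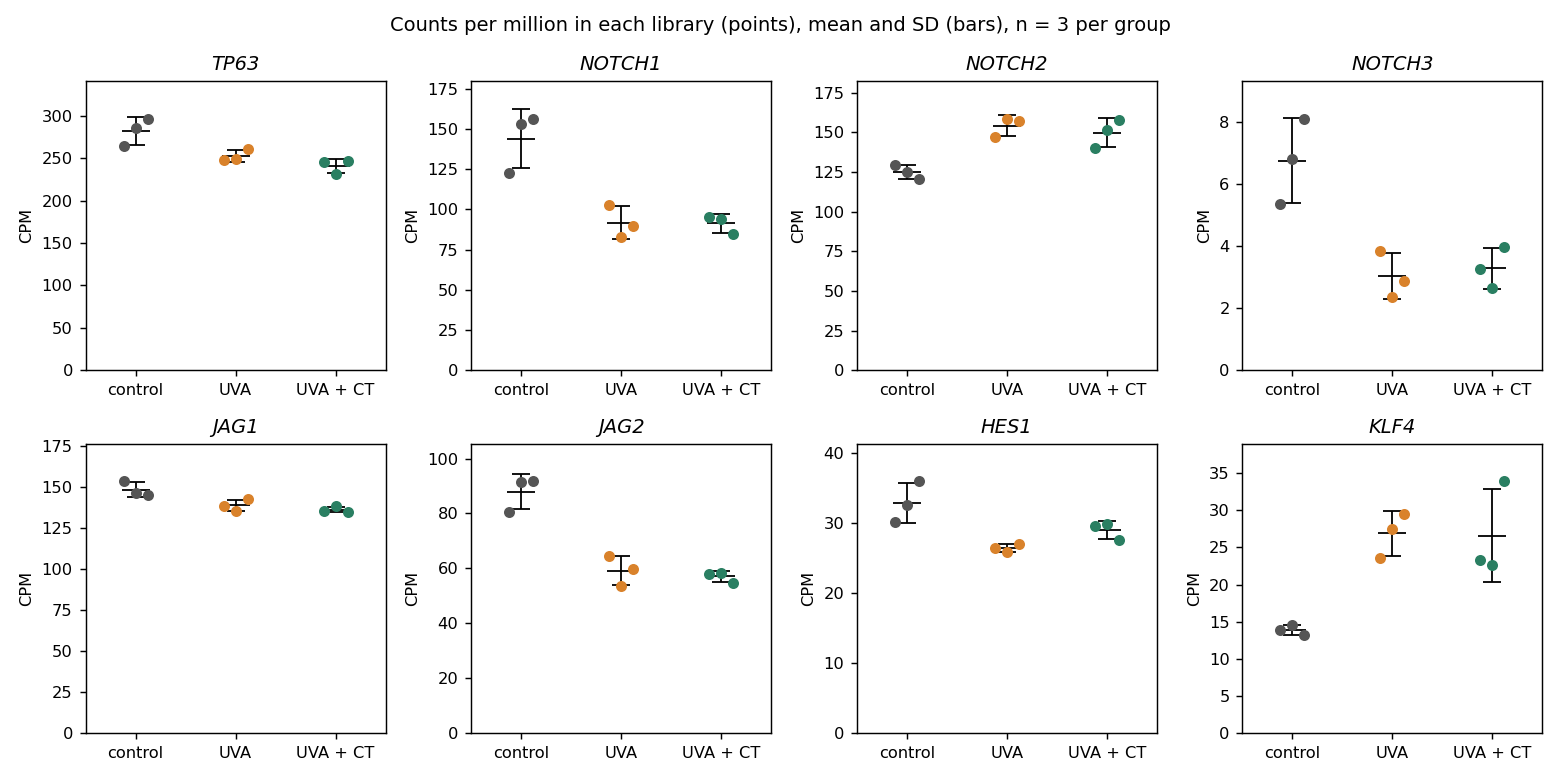
Level of each of the 8 genes in CPM (vertical axes, from 0) in the 3 libraries of the control, UVA and UVA + CT groups; points are libraries and bars are mean and SD (n = 3). In all 8 panels the UVA points lie wholly above (NOTCH2, KLF4) or wholly below (the other 6) the control points. The UVA + CT points lie near the UVA points, except in HES1, where they lie between the UVA and the control points. The share of all genes separated in this way was not counted.

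TP63, the regulator of the basal state, was measured at 264, 286 and 296 CPM in control, at 248, 249 and 261 CPM in UVA and at 246, 232 and 246 CPM in CT. The control libraries were the highest, with a narrow gap between the lowest of them and the highest UVA library. The mean fell from 282 ± 16.5 to 252 ± 7.58 CPM, a log2 fold change of -0.16 (SE 0.05, adjusted p = 0.0154, n = 3 per group), which is a drop of 10.5% in fitted level. That call was lost when control replicate 2 (adjusted p = 0.0656), control replicate 3 (0.0904), UVA replicate 1 (0.0610) or UVA replicate 2 (0.0636) was left out of the edgeR fit. In CT the mean was 241 ± 8.12 CPM and the log2 fold change against control was -0.23 (SE 0.05, adjusted p = 0.000764).

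The receptors moved in different directions. NOTCH1, the main receptor that promotes keratinocyte differentiation, stood at 123, 153 and 156 CPM in control, at 103, 82.9 and 89.4 CPM in UVA and at 95.5, 93.8 and 84.4 CPM in CT. Control replicate 1 was the lowest control library and yet above every irradiated library. The mean fell from 144 ± 18.5 to 91.7 ± 10.1 CPM, with a log2 fold change of -0.65 (SE 0.11, edgeR adjusted p = 0.00541), or 36.2% less.

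NOTCH2, a second receptor of the same family, was at 129, 125 and 120.3 CPM in control, at 147, 158 and 157 CPM in UVA and at 139.8, 152 and 158 CPM in CT. All 6 irradiated libraries exceeded all 3 control libraries. The mean rose from 125 ± 4.56 to 154 ± 6.42 CPM, a log2 fold change of 0.30 (SE 0.05, edgeR adjusted p = 0.000263), or 23.3% more. NOTCH2 shares sequence with its partial copies NOTCH2NLA, NOTCH2NLB, NOTCH2NLC and NOTCH2NLR, between which the authors' counting may have split reads. Those copies together held 651 to 832 counts per control library, 717 to 839 per UVA library and 648 to 705 per CT library, and none of the 4 was called in UVA against control.

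NOTCH3 was the least abundant of these 3 receptors, with 104, 126 and 138 counts in control, 69, 39 and 56 in UVA and 68, 53 and 85 in CT. Expressed as CPM these were 5.34, 6.81 and 8.10 in control, 3.83, 2.37 and 2.86 in UVA and 3.26, 2.64 and 3.96 in CT. The groups did not overlap, although control replicate 1 was again nearest to the irradiated libraries. NOTCH3 had the largest change of the 8, from 6.75 ± 1.38 to 3.02 ± 0.742 CPM, with a log2 fold change of -1.15 (SE 0.21, edgeR adjusted p = 0.000657) and the widest 95% interval, -1.59 to -0.71. It was the only member past a 2-fold change.

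The ligands changed to unequal extents. JAG1 was at 153, 147 and 145 CPM in control, at 138, 135 and 142 CPM in UVA and at 136, 138 and 135 CPM in CT. Its mean was 148 ± 4.36 CPM in control and 139 ± 3.45 CPM in UVA, with a log2 fold change of -0.10 (SE 0.04) that missed the threshold (edgeR adjusted p = 0.110). In CT against control JAG1 was called lower at -0.12 (SE 0.04, adjusted p = 0.0300), and this call was lost without control replicate 1 (adjusted p = 0.104), control replicate 2 (0.0547) or any CT library (0.0547 to 0.0762).

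JAG2 was at 80.6, 91.5 and 91.7 CPM in control, at 64.4, 53.6 and 59.6 CPM in UVA and at 58.1, 58.4 and 54.7 CPM in CT. The irradiated libraries stayed well below the control libraries. JAG2 had the smallest adjusted p of the 8 genes: the mean fell from 87.9 ± 6.32 to 59.2 ± 5.38 CPM, a log2 fold change of -0.57 (SE 0.07, edgeR adjusted p = 9.95e-06), or 32.6% less.

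HES1, the repressor that Notch switches on through RBPJ, was at 30.2, 32.5 and 35.9 CPM in control, at 26.4, 25.8 and 27.0 CPM in UVA and at 29.6, 29.9 and 27.5 CPM in CT. The CT libraries lay between the UVA and the control libraries without touching either. From control to UVA the mean fell from 32.9 ± 2.89 to 26.4 ± 0.563 CPM, a log2 fold change of -0.31 (SE 0.08, edgeR adjusted p = 0.00566). In CT the mean was 28.998 ± 1.30 CPM. The log2 fold change of CT against control, -0.18 (SE 0.07), was not called (adjusted p = 0.0754), though it passed when control replicate 1 was left out (-0.24, adjusted p = 0.0271).

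KLF4, the barrier factor, was at 13.9, 14.5 and 13.3 CPM in control, at 23.5, 27.5 and 29.6 CPM in UVA and at 23.3, 22.6 and 33.9 CPM in CT. Control libraries were tightly grouped and all irradiated libraries lay far above them, with CT replicate 3 the highest. The mean rose from 13.9 ± 0.634 to 26.9 ± 3.08 CPM, a log2 fold change of 0.95 (SE 0.16, edgeR adjusted p = 0.00151), or 1.94-fold.

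Cells that received UVA and CT differed from control cells in the same way for most of the genes. Thus 5 members were called lower (TP63, NOTCH1, NOTCH3, JAG1 and JAG2), where 14.2% of all tested genes were, and 2 were called higher (NOTCH2 and KLF4), where 15.7% were. NOTCH1 was at 91.2 ± 5.94 CPM (log2 fold change against control -0.66, SE 0.11, edgeR adjusted p = 0.00318), NOTCH3 at 3.29 ± 0.663 CPM (-1.03, SE 0.21, adjusted p = 0.000802) and JAG2 at 57.1 ± 2.02 CPM (-0.62, SE 0.07, adjusted p = 1.68e-06). NOTCH2 was at 149.7 ± 9.07 CPM (0.26, SE 0.05, adjusted p = 0.000527) and KLF4 at 26.6 ± 6.32 CPM (0.94, SE 0.15, adjusted p = 0.000915). Because both comparisons use the same control libraries, the likeness of their values is not separate evidence.

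CT against UVA addresses what CT added in irradiated cells. None of the 8 genes was called in either direction by edgeR, by DESeq2 or by limma-voom, and 0 reached an unadjusted p under 0.05, while 0.944% of all tested genes were called higher and 0.614% lower. The fitted differences were small and their 95% intervals bound what these libraries could show. The interval of log2 fold change ran from -0.16 to 0.03 for TP63, from -0.27 to 0.26 for NOTCH1, from -0.14 to 0.06 for NOTCH2 and from -0.34 to 0.58 for NOTCH3. It ran from -0.11 to 0.06 for JAG1, from -0.19 to 0.09 for JAG2 and from -0.33 to 0.30 for KLF4. HES1 had the largest fitted difference of the 8, 0.13 (SE 0.08, 95% interval -0.02 to 0.29, adjusted p = 0.470), and was higher in each CT library than in each UVA library. TP63 was lower in each CT library than in each UVA library, at -0.07 (unadjusted p = 0.156, adjusted p = 0.565). The share of all tested genes that separate in this way between CT and UVA was not counted, so these 2 separations are descriptions only. A p above the threshold does not show that the groups were alike.

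**Figure D2:**
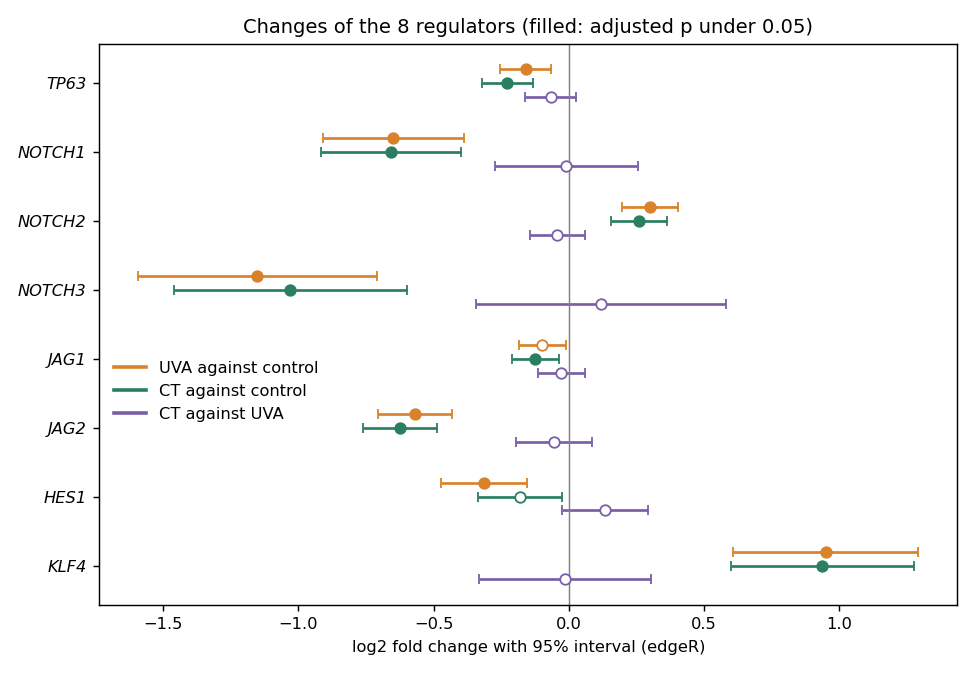
Log2 fold change of each of the 8 genes with its 95% interval (horizontal axis) in the 3 comparisons; filled points have an adjusted p under 0.05 and open points do not. The intervals of CT against UVA all cross 0, whereas KLF4 (0.95) and NOTCH3 (-1.15) lie farthest from 0 in UVA against control.

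Ratios of counts taken within a library do not depend on how libraries are scaled. They are not corrected for gene length, so they show shifts between groups and not which gene has more transcripts. These ratios were chosen after the values were seen and are given without a test. NOTCH2 made up 50.3, 43.9 and 42.3% of the summed NOTCH1, NOTCH2 and NOTCH3 counts in control, 57.9, 65.0 and 63.01% in UVA and 58.6, 61.1 and 64.1% in CT. There were 1.06, 0.819 and 0.770 NOTCH2 counts per NOTCH1 count in control, but 1.43, 1.91 and 1.76 in UVA and 1.46, 1.62 and 1.87 in CT. The receptor with the most counts was therefore NOTCH1 in control replicates 2 and 3 and NOTCH2 in control replicate 1 and all irradiated libraries. NOTCH2 has the longer annotated exons (16.1 kb, beside 9.31 kb for NOTCH1). Per kb, NOTCH1 was above NOTCH2 in control (15.5 beside 7.77 CPM per kb). The 2 were level in UVA (9.85 ± 1.09 beside 9.59 ± 0.399) and in CT (9.80 ± 0.639 beside 9.31 ± 0.564). JAG1 counts per JAG2 count were 1.90, 1.60 and 1.58 in control, 2.15, 2.53 and 2.39 in UVA and 2.33, 2.37 and 2.47 in CT. For TP63 and KLF4, the basal and the upper-layer factor, the ratio was 19.0, 19.7 and 22.3 in control, 10.5, 9.03 and 8.83 in UVA and 10.5, 10.2 and 7.26 in CT. None of these 3 ratios overlapped between control and irradiated libraries.

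**Figure D3:**
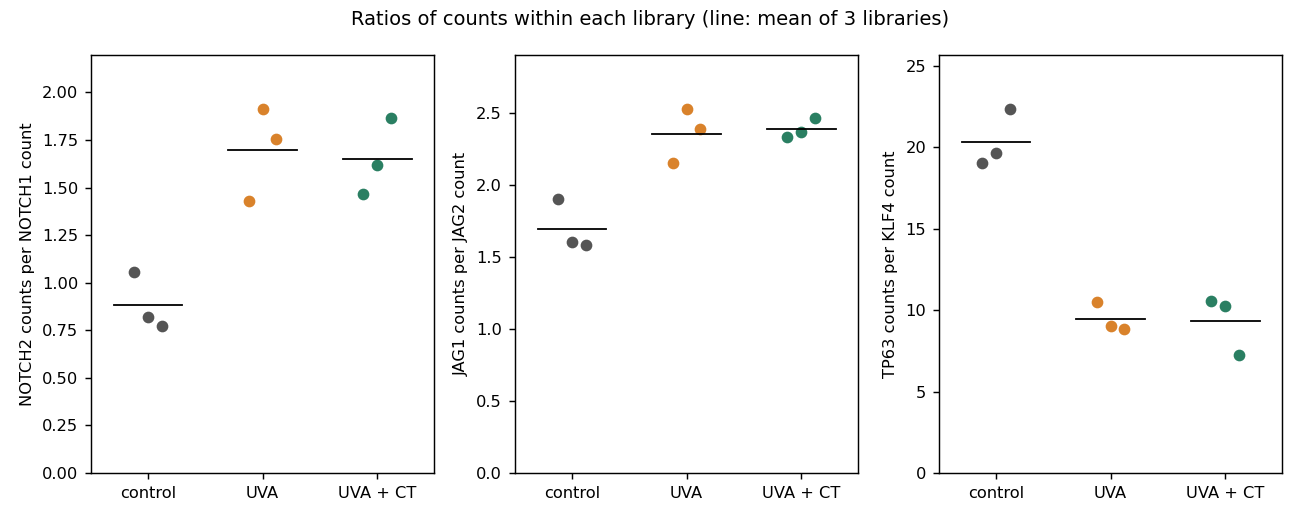
NOTCH2 counts per NOTCH1 count, JAG1 counts per JAG2 count and TP63 counts per KLF4 count (vertical axes, from 0) in each library; points are libraries and lines are means of 3. Control libraries lie at 0.770 to 1.06, 1.58 to 1.90 and 19.0 to 22.3, apart from all irradiated libraries in each panel.

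Levels of different genes were compared per kilobase of annotated exon (GENCODE 29 basic transcripts, since the authors' annotation is unknown). In control the order was TP63 at 43.2 ± 2.52 CPM per kb, JAG1 at 24.98 ± 0.733, HES1 at 20.8 ± 1.83, NOTCH1 at 15.5 ± 1.98, JAG2 at 15.1 ± 1.08, NOTCH2 at 7.77 ± 0.284, KLF4 at 4.74 ± 0.216 and NOTCH3 at 0.779 ± 0.159 CPM per kb. Only NOTCH1 and JAG2 overlapped among neighbours in this order. In UVA the top was again TP63, JAG1 and HES1, at 38.7 ± 1.16, 23.4 ± 0.581 and 16.7 ± 0.357 CPM per kb, and NOTCH3 was again last, at 0.349 ± 0.0856 CPM per kb. JAG2, NOTCH1, NOTCH2 and KLF4 lay together between 8.02 and 11.0 CPM per kb in the UVA libraries and overlapped. In the CT libraries the same 4 genes lay between 7.72 and 11.6 CPM per kb.

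Genes outside the set whose level followed a member most closely over the 9 libraries were sought among 11162 genes averaging 2 or more in log2 CPM, by the root mean square difference of centred log2 CPM, given as a description. KRT5, the basal keratin that pairs with KRT14, was nearest to NOTCH1 (0.05, beside an SD of 0.33 of NOTCH1 itself) and also nearest to JAG2 (0.04, beside 0.29). KRT5 was at 2192 ± 249.7 CPM in control, 1450 ± 100.4 CPM in UVA and 1408 ± 42.7 CPM in CT. The next genes were UNC5B and PROM2 for NOTCH1 and KRT19 and CTSD for JAG2. BIRC3, an inhibitor of apoptosis, was nearest to KLF4 (0.10, beside 0.47), followed by ANTXR2 and MIR100HG, and CRYBG2 was nearest to NOTCH3 (0.17, beside 0.57), followed by ALPP and MUC1. For the members that moved least, TP63 (DCP2, TMEM41B and MTMR3), NOTCH2 (NTHL1, FYCO1 and SRSF1), JAG1 (MTA2, PRKDC and SMIM7) and HES1 (SAMD1, HMGN5 and PI4KB), the nearest genes lay within 0.02 to 0.04. The SDs of these members themselves were also small, at 0.107 for TP63, 0.145 for NOTCH2, 0.06 for JAG1 and 0.145 for HES1.

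Of 7 other receptors and ligands only DLL1 and DLK2 passed the filter, at 10.9 ± 0.622 and 7.79 ± 0.445 CPM in control. DLK2, a membrane protein related to Delta, was lower in UVA (log2 fold change -0.63, SE 0.18, edgeR adjusted p = 0.0134), a call lost without control replicate 2 or UVA replicate 2 (adjusted p up to 0.0880). DLL1 was not called (0.21, SE 0.11, adjusted p = 0.201).

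Among the enzymes and adaptors that modify, cleave or degrade Notch, 25 of 28 were tested. In UVA 2 rose and 5 fell, beside 10.5% and 10.6% of all tested genes, with a median of -0.04, and 18 did not pass the test. ITCH, a ubiquitin ligase that degrades both Notch and p63, rose from 211 ± 12.8 to 271 ± 7.25 CPM (log2 fold change 0.36, edgeR adjusted p = 2.47e-05) and was at 274 ± 12.3 CPM in CT. POFUT1, which adds the fucose that Notch needs for ligand binding, rose from 91.4 ± 3.88 to 104 ± 1.33 CPM (0.18, adjusted p = 0.00734). The 5 that fell were NCSTN, NEURL1B, DTX2, DTX3L and DTX4, and their number was 2 without control replicate 2, UVA replicate 1 or UVA replicate 2 and 1 without control replicate 3 or UVA replicate 3. NCSTN, a subunit of γ-secretase, was at 72.0 ± 5.37 CPM in control and 63.6 ± 1.003 CPM in UVA (-0.18, adjusted p = 0.0298), a call lost without control replicate 2 or 3 or any 1 UVA library (adjusted p up to 0.178). In CT against control 3 rose and 6 fell, beside 15.7% and 14.2% of all tested genes, the latter 3 without control replicate 2 or 3.

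NEURL1B, a ubiquitin ligase that promotes ligand uptake, was the only gene of that list called in CT against UVA. Its level was 23.1 ± 2.72 CPM in control, 14.5 ± 0.822 CPM in UVA and 9.22 ± 2.25 CPM in CT, with no overlap between groups. The log2 fold change was -0.67 in UVA against control (edgeR adjusted p = 0.00290) and -0.66 in CT against UVA (adjusted p = 0.0343). The second call was lost without any 1 of the UVA libraries and without CT replicate 2 or 3 (adjusted p up to 0.177).

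Of 17 components of the nuclear Notch complex and its corepressors, all tested, 0 rose and 4 fell in UVA (among them MAML3, SPEN and TLE4), beside 10.5% and 10.6% of all tested genes, with a median of -0.11. At an unadjusted p under 0.05, 1 was higher and 7 lower, and DESeq2 and limma-voom also called 0 higher. A single component was called higher when control replicate 1 or CT replicate 1 was left out, and 1 instead of 4 was called lower without control replicate 2, control replicate 3, UVA replicate 2 or UVA replicate 3. RBPJ itself was at 58.0 ± 1.06 CPM in control, 57.1 ± 1.13 CPM in UVA and 61.0 ± 3.45 CPM in CT (UVA against control -0.02, SE 0.06, edgeR adjusted p = 0.832). MAML3, a Mastermind coactivator, was at 2.85 ± 0.284 CPM in control and 1.45 ± 0.215 CPM in UVA (-0.97, adjusted p = 0.0117), a call lost without control replicate 2 or UVA replicate 3 (adjusted p up to 0.0521).

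Among other HES, HEY and keratinocyte Notch targets, 12 of 16 were tested, and in UVA 2 rose and 1 fell, close to the 10.5% and 10.6% of all tested genes, with a median of -0.06. MYC, the growth factor-responsive transcription factor, rose from 131 ± 14.6 to 189 ± 2.02 CPM (log2 fold change 0.52, edgeR adjusted p = 0.00323). CCND1, cyclin D1, rose by 0.40 (adjusted p = 0.00963), and ID1, an inhibitor of basic helix-loop-helix factors, fell from 287 ± 28.7 to 163 ± 21.1 CPM (-0.82, adjusted p = 0.00851). HEY1, a direct Notch target, was at 6.33 ± 0.754 CPM in control and 6.09 ± 0.643 CPM in UVA and was not called.

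NRARP, a Notch target that feeds back on the Notch complex, was the only one of these targets called in CT against UVA. It was at 28.6 ± 2.35 CPM in control, 28.2 ± 2.89 CPM in UVA and 36.0 ± 2.22 CPM in CT, a log2 fold change of 0.35 against UVA (SE 0.08, edgeR adjusted p = 0.0305). Every CT library exceeded every UVA and control library. The call against UVA was lost without UVA replicate 1 or 2 or CT replicate 2 or 3 (adjusted p up to 0.184), while that against control (0.33, adjusted p = 0.00408) passed with any 1 library left out. DESeq2 called 2 of these targets higher and 1 lower in CT against UVA.

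**Figure D4:**
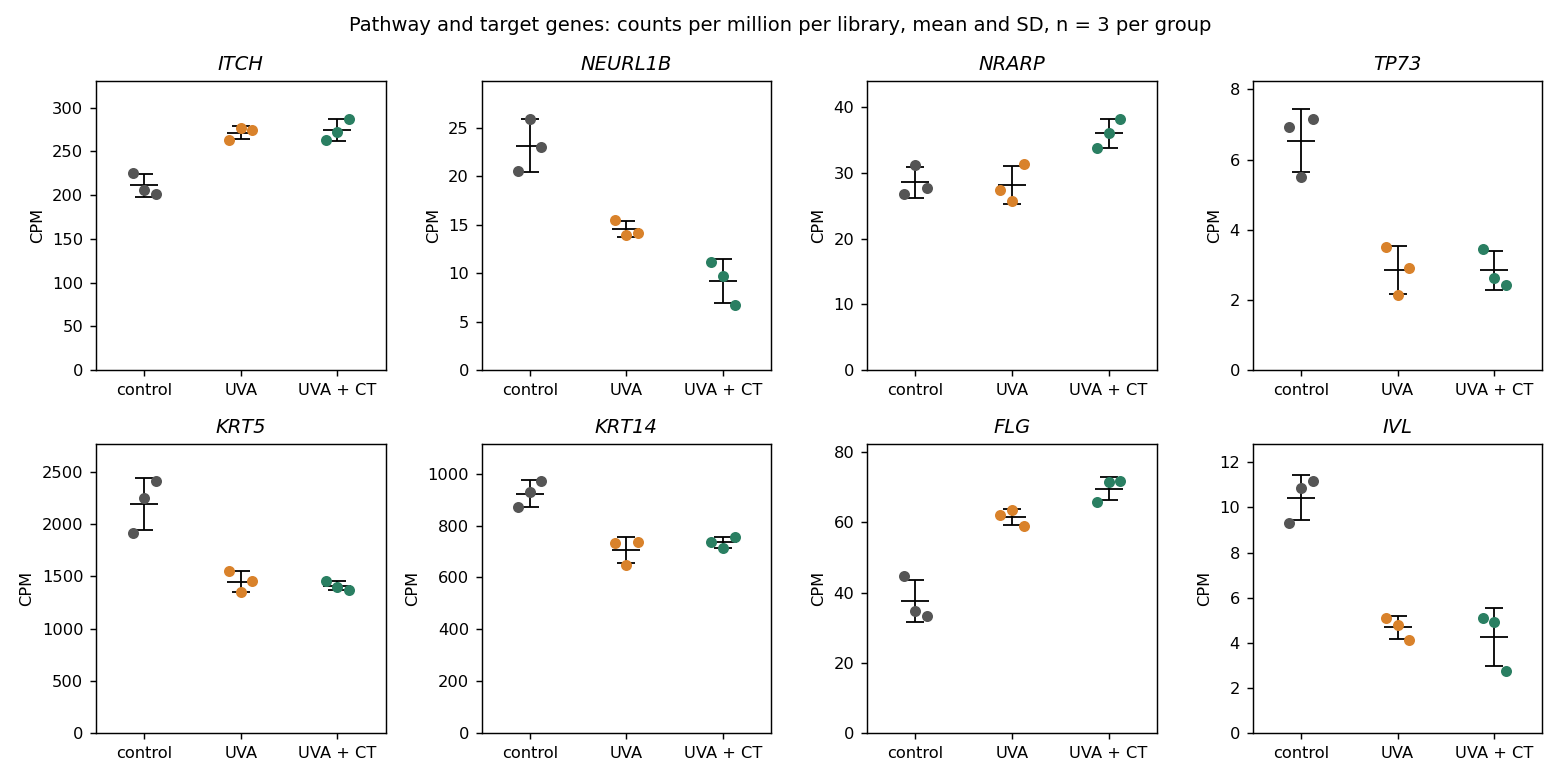
CPM (vertical axes, from 0) of 8 pathway, basal and differentiation genes in each library; points are libraries and bars are mean and SD (n = 3). NRARP is higher in the UVA + CT libraries (36.0 ± 2.22 CPM) than in the other groups and NEURL1B falls in both steps, whereas ITCH, TP73, KRT5, KRT14, FLG and IVL separate control from irradiated libraries.

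Of 20 relatives, partners and regulators of p63, all tested, 3 rose (ITCH, RUNX1 and CEBPB) and 5 fell (TP73, PPP1R13B, STXBP4, SOX2 and TFAP2A) in UVA, beside 10.5% and 10.6% of all tested genes, with a median of -0.05. The number that fell was 3 without control replicate 2 or UVA replicate 2. TP73, the p63 homologue, fell from 6.54 ± 0.895 CPM in control to 2.85 ± 0.687 CPM in UVA and stood at 2.84 ± 0.545 CPM in CT (UVA against control -1.19, SE 0.20, edgeR adjusted p = 0.000364). RUNX1, a transcription factor that partners with p63, rose from 133 ± 9.27 to 165 ± 2.22 CPM (0.31, adjusted p = 0.000742).

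The basal and p63 target list, of which 32 of 35 genes were tested, had 5 higher and 13 lower in UVA, beside 10.5% and 10.6% of all tested genes, with a median of -0.07. The counts were 3 and 8 without control replicate 2, 5 and 7 without control replicate 3, 3 and 7 without UVA replicate 2 and 3 and 9 without UVA replicate 3. Of those that fell, the basal keratin KRT14 went from 924 ± 50.4 to 705 ± 50.4 CPM (log2 fold change -0.39, edgeR adjusted p = 5.17e-05), KRT5 fell by 0.60 on the log2 scale (adjusted p = 0.00172), and DSC3, a desmosomal cadherin, went from 406 ± 45.2 to 318 ± 2.62 CPM (-0.35, adjusted p = 0.00466). FGFR3, a fibroblast growth factor receptor, had the largest fall of those named here, from 24.5 ± 7.31 to 8.49 ± 1.24 CPM (-1.52, adjusted p = 0.0120). Of those that rose, LAMA3, a laminin chain, went from 363 ± 31.9 to 533 ± 21.0 CPM (0.55, adjusted p = 0.00176) and EGFR, the epidermal growth factor receptor, from 816 ± 35.7 to 936 ± 20.1 CPM (0.20, adjusted p = 0.00143). COL17A1 rose as well, and FERMT1 was called higher (0.31, adjusted p = 0.0231), a call lost without control replicate 2 or any 1 UVA library (adjusted p up to 0.0878). In CT against UVA 1 gene was called, the glutathione peroxidase GPX2, which was higher (74.4 ± 3.78 to 105 ± 9.14 CPM, 0.50, adjusted p = 0.00621). In CT against control 8 were higher and 12 lower, beside 15.7% and 14.2% of all tested genes, with 3 higher without control replicate 2 and 4 higher without CT replicate 3.

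Genes of terminal differentiation were mostly too low to test, 11 of 30 being tested. LORICRIN had 0 counts in all libraries and KRT1 was at 0.0925 ± 0.160 CPM or less in each group. In UVA 5 rose (FLG, SPRR1B, S100A7, S100A8 and S100A9) and 2 fell (IVL and KLK5), beside 10.5% and 10.6% of all tested genes, with 3 higher without control replicate 2 or UVA replicate 3. FLG, the barrier protein filaggrin, rose from 37.6 ± 6.09 to 61.6 ± 2.29 CPM (log2 fold change 0.71, edgeR adjusted p = 6.86e-05) and stood at 69.6 ± 3.35 CPM in CT. IVL, the envelope protein involucrin and a Notch-responsive gene, moved the other way, from 10.4 ± 0.995 to 4.68 ± 0.496 CPM (-1.16, adjusted p = 0.000216), and stood at 4.26 ± 1.31 CPM in CT. S100A7, an antimicrobial protein, rose from 1.498 ± 0.697 to 3.73 ± 0.801 CPM (1.33, adjusted p = 0.00148), and KLK5, a protease of shedding, fell by 0.35 on the log2 scale (adjusted p = 0.000761).

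Of 26 transcription factors of epidermal differentiation, 21 were tested, and in UVA 1 rose (CEBPB) and 8 fell, beside 10.5% and 10.6% of all tested genes, with a median of -0.16. The number that fell was 3 without control replicate 2, control replicate 3, UVA replicate 2 or UVA replicate 3 and 5 without UVA replicate 1, and CEBPB was not called without control replicate 2, UVA replicate 2, UVA replicate 3, CT replicate 1 or CT replicate 3 (adjusted p up to 0.119). EHF, an ETS factor of epithelia, fell from 873 ± 72.0 to 716 ± 4.92 CPM (-0.29, edgeR adjusted p = 0.00326), KLF5 from 233 ± 23.5 to 175 ± 6.52 CPM (-0.41, adjusted p = 0.00576) and CEBPA from 5.59 ± 0.449 to 2.93 ± 0.466 CPM (-0.93, adjusted p = 0.00113).

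Of 17 other KLF factors 11 were tested, and in UVA 3 rose (KLF7, KLF11 and KLF16) and 3 fell (KLF5, KLF3 and KLF13), beside 10.5% and 10.6% of all tested genes, with a median of 0.01. The number that fell was 1 without control replicate 2, control replicate 3, UVA replicate 1 or UVA replicate 3. KLF16 rose from 24.0 ± 1.62 to 32.9 ± 0.0623 CPM (log2 fold change 0.45, edgeR adjusted p = 0.000284) and KLF7 from 74.5 ± 3.47 to 90.4 ± 2.53 CPM (0.28, adjusted p = 0.000547). Both changes were smaller than that of KLF4, and the difference between genes was not tested. In CT against UVA none of the 11 was called by edgeR, DESeq2 or limma-voom (unadjusted p under 0.05 for 1 lower gene), but 1 was called lower without CT replicate 1.

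**Figure D5:**
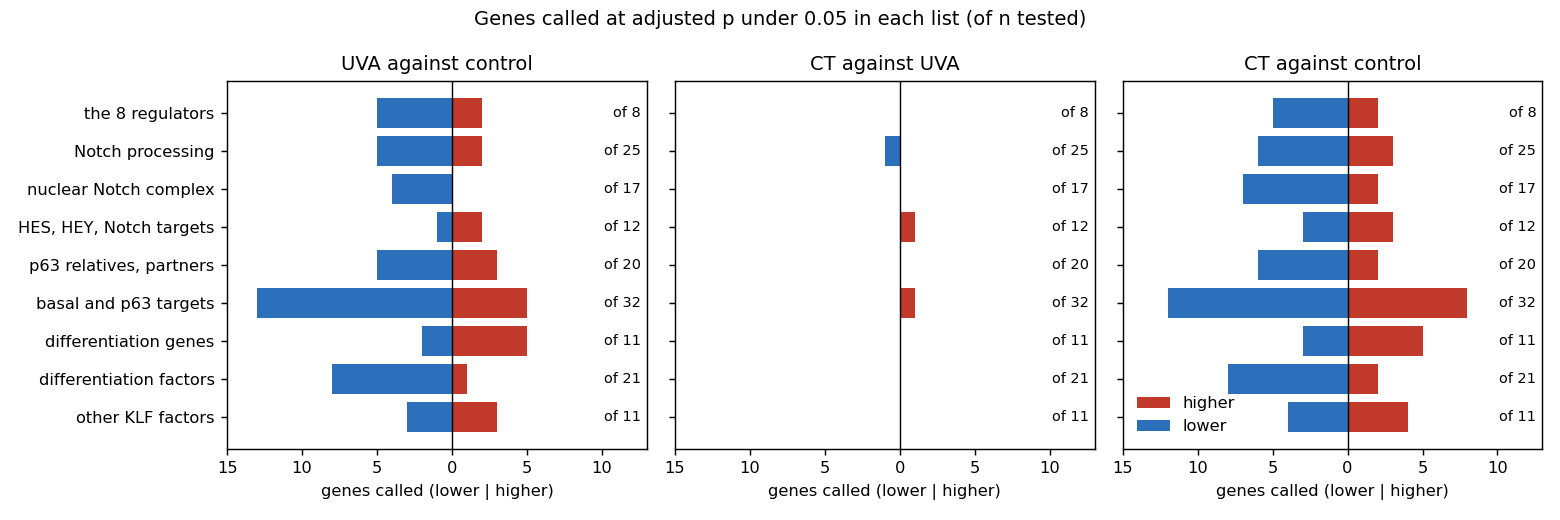
Number of genes called lower (left of 0) and higher (right of 0) at an adjusted p under 0.05 in each list, for the 3 comparisons, with the number tested at the right of each row. CT against UVA has 3 calls over the lists shown (NEURL1B, NRARP and GPX2), whereas the basal and p63 target list has 13 lower and 5 higher in UVA against control.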

How the data were processed

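HaCaT RNA was sequenced in 3 groups of 3 libraries. After oligo(dT) capture the authors deposited whole-number counts per gene, not normalized. The submitters' notes name bcl2fastq, fastp 0.23.2 and GRCh38. The aligner, counting program, annotation and use of strand were not given in the sources used here. Antisense or overlapping genes at the members held at most 4 counts per library.

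Columns were assigned by sample label, with 0 left over. The edgeR filterByExpr function kept 15154 of 61311 genes. Counts were scaled by TMM, and all 9 libraries entered a robust quasi-likelihood fit in edgeR 4.0.16 (limma 3.58.1, R 4.3.3). The call was a Benjamini-Hochberg adjusted p under 0.05. SE was taken as |log2 fold change| / √F, and intervals are 95% from the t distribution. The procedure was run on independent counts simulated with the spread fitted to these libraries. Such a run cannot show how it handles uneven real replicates, and its outcome is not reported here. Alternatives were DESeq2 1.42.0, limma-voom, RLE or library-size scaling, no filter and at least 10 counts in every library. Others were the compared groups alone, a replicate block and each library left out. Calls were also made at an adjusted p under 0.01, or at a fold over 2 with an unadjusted p under 0.05. The labels do not say whether libraries with the same number were pairs. Residual correlations were -0.05 to 0.03 for the same number and -0.06 to 0.06 for different numbers, which cannot show that libraries were unpaired. The number was no block in the main fit.

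Members and gene lists were chosen with earlier results of these data known. Up to 4 genes per list with the smallest adjusted p were named with values, and 3 genes per member for likeness. Other genes were named after their values were seen. Lists share genes: ITCH, CEBPB, DLX3, TFAP2A, KLF3 and KLF5 each stand in more than 1. Fold changes and p-values of the authors were not used. Some members of the lists are not reported here. Sequences are from RefSeq.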

Additional observations from a re-analysis of the deposited data

How the results depend on the processing

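The members' calls in UVA against control kept their direction under all alternatives run. Lost or gained calls of TP63, JAG1 and HES1 are given with their values. No other call of a member against control changed among these alternatives, with 1 exception. With a fold change over 2 and an unadjusted edgeR p under 0.05, 1 member (NOTCH3) remained in each comparison with control. JAG1 in CT against control also missed the threshold with no filter (adjusted p = 0.0628). Leaving out libraries gave 6 to 7 members called in each comparison with control and 0 to 0 in CT against UVA.

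Uncalled differences of CT against UVA changed sign when 1 library was left out: NOTCH1 ranged from -0.0767 to 0.0784, NOTCH2 from -0.0817 to 0.00655, NOTCH3 from -0.0367 to 0.323, JAG2 from -0.122 to 0.00605 and KLF4 from -0.229 to 0.0848 in log2 fold change. Over all genes, UVA against control had 3202 calls, and 1728 at an adjusted p under 0.01. At a fold over 2 with an unadjusted edgeR p under 0.05 it had 334. CT against control had 4517, then 2760 and 460. CT against UVA had 236, then 100 and 111, 561 with no filter and 95 to 372 with 1 library left out, the highest without CT replicate 1. The causes of these shifts were not tested.

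With the replicate block, 7 members were called in UVA against control, 0 in CT against UVA and 7 in CT against control, beside 2802, 169 and 4145 of all genes. The NRARP and NEURL1B calls of CT against UVA were lost under the replicate block. It moved the counts of 3 lists in UVA against control by over 1.5 times: basal and p63 targets 3 higher and 9 lower, differentiation factors 0 and 5, p63 relatives and partners 2 and 3. The alternatives for lists were added after the data were seen.

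NOTCH3, with 39 to 138 counts per library, had the widest intervals.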

Other observations

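Of the 4 partial NOTCH2 copies tested, 1 was called lower in CT against UVA, beside 0.614% of all tested genes. In CT against control 2 were called lower, beside 14.2% of all tested genes. NOTCH2NLA, a human-specific copy of the first exons of NOTCH2, was at 19.8 ± 1.19 CPM in control, 22.7 ± 1.83 CPM in UVA and 14.9 ± 0.299 CPM in CT. It was lower in CT than in UVA by edgeR (log2 fold change -0.61, SE 0.09, adjusted p = 0.000413) and lower in CT than in control (-0.42, adjusted p = 0.00141), and both calls held with any 1 library left out. NOTCH2NLC was called lower in CT than in control (-0.47, adjusted p = 0.0373), and that call was lost without control replicate 1, control replicate 2, UVA replicate 1, CT replicate 2 or CT replicate 3. NOTCH2NLB was at -0.26 in CT against UVA (adjusted p = 0.338). Reads of these copies can be shared among them and with NOTCH2, so their separate levels are uncertain.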
